A study of Homo sapiens with 9 samples.

Results

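The AP-1 genes described here are the 8 genes FOS, FOSB, FOSL1, FOSL2, JUN, JUNB, JUND and ATF3, found by their gene symbol among 62709 genes with values. All 8 were found once, all 8 passed the expression filter of the test, and the lowest read count of any of them in any library was 2401. The libraries came from hTERT-MSC, a telomerase-immortalised line of human mesenchymal stem cells labelled as adipose, and total RNA was sequenced in 3 groups of 3 libraries. Serum-starved cells were trypsinised, seeded without serum on uncoated membranes with 3 µm pores, and after 2 h were exposed to 50 ng/mL PDGF-BB, a platelet-derived growth factor, from below for 1 h. Pseudopodia were what was scraped from the lower side of the membrane, and cell bodies what was then scraped from the upper side. Whole cells carry the same label of 1 h of PDGF-BB, and how they were collected is not described separately. Whole cells hold both compartments, so each comparison with a fraction sets a whole against its part. Such a comparison cannot tell a difference in collection from one in compartment. All 9 libraries received PDGF-BB, so no untreated level of any AP-1 gene was measured, and all came from 1 line. The labels do not say that replicates came from separate cultures, so the p-values measure the spread between these libraries, which may be technical.

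AP-1 is a family of dimeric transcription factors of the basic leucine zipper type: FOS proteins bind DNA only when paired with a JUN protein, while JUN proteins can also pair with each other and with ATF proteins. FOS, FOSB, JUN and JUNB are classic immediate early genes, whose mRNAs appear within minutes of a growth factor through factors already present in the cell and are removed quickly through AU-rich elements in their tails. FOSL1 and FOSL2 are usually induced later and last longer, JUND is present in resting cells, and ATF3 is a stress-induced gene.

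The start regions of 4 members are shown as examples: FOS, FOSB and JUNB of the 5 members highest in whole cells, which also include JUN and ATF3, and JUND, which was highest in pseudopodia. Each line gives the 250 bases before the RefSeq start on GRCh38.p14, 5′ to 3′ on the strand of the gene, and capitals mark every match to a searched motif. The windows are chr14:75278578-75278827 on the plus strand for FOS, chr19:45467746-45467995 on the plus strand for FOSB, chr19:12791236-12791485 on the plus strand for JUNB, and chr19:18281623-18281872 on the minus strand for JUND. The GENCODE models of FOS and FOSB begin inside their windows, that of FOSB at the last base. The windows of JUN and FOSL2, searched but not shown, lie within the GENCODE models of these genes. For ATF3, also not shown, the first window holds the start of the GENCODE model and the second lies within the model.
FOS: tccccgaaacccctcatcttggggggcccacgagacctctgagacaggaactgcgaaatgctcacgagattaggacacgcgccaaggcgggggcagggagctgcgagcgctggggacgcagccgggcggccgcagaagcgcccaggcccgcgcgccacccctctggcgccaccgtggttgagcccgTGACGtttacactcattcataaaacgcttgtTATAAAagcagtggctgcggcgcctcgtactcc
FOSB: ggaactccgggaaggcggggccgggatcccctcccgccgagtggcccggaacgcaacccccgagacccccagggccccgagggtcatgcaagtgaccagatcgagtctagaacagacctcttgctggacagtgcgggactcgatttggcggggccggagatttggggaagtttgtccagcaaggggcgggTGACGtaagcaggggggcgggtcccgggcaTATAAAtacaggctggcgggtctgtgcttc
JUNB: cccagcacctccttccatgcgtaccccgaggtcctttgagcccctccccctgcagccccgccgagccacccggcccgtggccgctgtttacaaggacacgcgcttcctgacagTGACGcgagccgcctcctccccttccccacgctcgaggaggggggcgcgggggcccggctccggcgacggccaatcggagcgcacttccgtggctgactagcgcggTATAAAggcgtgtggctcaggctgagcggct
JUND: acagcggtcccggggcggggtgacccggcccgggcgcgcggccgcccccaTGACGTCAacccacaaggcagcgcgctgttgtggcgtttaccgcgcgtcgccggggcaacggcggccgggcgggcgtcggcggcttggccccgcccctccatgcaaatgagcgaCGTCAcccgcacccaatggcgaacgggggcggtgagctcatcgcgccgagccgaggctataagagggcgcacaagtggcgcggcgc

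Searched on both strands were the TATA box TATAAA, the core TGACG of the cAMP response element, the whole element TGACGTCA (which contains that core), the AP-1 site TGANTCA and the CArG box, which is bound by serum response factor. FOS, FOSB and JUNB each had TATAAA, ending 28, 25 and 26 bases before the start. ATF3 had these letters 230 to 225 bases before its second start, much farther from the start than in the others. JUN, FOSL2 and JUND had no match to these letters in their windows. The letters were thus found in 4 of 7 members (10.7% of all promoters), and JUN, in the same order of groups as FOS, lacked them. Variants were not searched, and the JUND window holds tataag near its end. A missing match therefore does not show that a gene has no TATA box. JUND was the only member with a whole cAMP response element, 200 to 193 bases before its start, a sequence held by 1.65% of 35116 RefSeq promoters of the same length. The shorter core was found in 6 of the 7 members with a RefSeq promoter entry and in 21.2% of all promoters. No AP-1 site and no CArG box lay in these windows of the 7 members, against 6.57% and 1.16% of all promoters, which says only that these letters are not in this window. FOSL1 had no entry.

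Short stretches around the AU-rich core are shown because these elements are the known handle for rapid removal of early mRNAs. Each gives 7 bases on either side of the core TATTTAT, in capitals, in the 3′ UTR of the principal GENCODE release 29 transcript.
FOS, first: tttaattTATTTATtaagatg
FOS, second: tctcagaTATTTATattttta
FOSB: ccttagcTATTTATccctttc
FOSL1: cagctgcTATTTATtttccta
JUN: ttatgaaTATTTATaacagca
JUND: tctgcccTATTTATgtttcta
ATF3: tattactTATTTATcctagta

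Of the 8 members, 7 held the core at least once, against 32.3% of 13818 protein-coding genes tested, and JUNB, whose 3′ UTR of 500 bases was the shortest of the 8, held none. FOS and FOSL2 held it 2 times (13.4% of genes held it 2 times or more). The core was thus present both in FOS, highest in whole cells, and in FOSL1, lowest there, so its presence did not separate these patterns.

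Libraries held 55469030 to 83894938 counts. Replicates varied over genes by a biological coefficient of variation of 32.8% in pseudopodia, 17.6% in cell bodies and 5.08% in whole cells, and no pair of replicates differed by as little as counting noise. The fit shared 1 spread per gene over the groups, so p-values may be too small where pseudopodia are compared. All 6 mesenchymal markers checked were above 0 in every library, but their summed level was 973.4 to 1064 TPM (a level scaled by transcript length and library) in pseudopodia, 2377 to 2830 in cell bodies and 2175 to 2289 in whole cells. Of the adipocyte markers, 4 were found and summed to 3.83 TPM or less, and the epithelial marker EPCAM was at 0.123 TPM or less. Summed epithelial markers, mostly the keratins KRT8 and KRT18, were 211.8 to 280.5 TPM in pseudopodia, 250.3 to 295.3 in cell bodies and 148.8 to 158.3 in whole cells. Summed endothelial markers were 38.8 to 84.9 TPM over all libraries and summed haematopoietic markers 30.1 to 61.6, and the part of these differences in the results below was not tested.

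The AP-1 genes divided into those that were higher in whole cells than in both fractions and those that were lower. FOS, FOSB, JUN, JUNB and ATF3 were higher in every whole-cell library than in every library of either fraction, and FOSL1, FOSL2 and JUND were lower in every one. That is 5 of 8 above, where 25.2% of the genes tested lay above, and 3 of 8 below, where 19.3% lay below (44.5% of genes together). No member thus had whole cells between the fractions, although whole cells hold both compartments, and the cause was not tested. Between pseudopodia and cell bodies 3 of 8 members passed the test, close to the 38.5% of all genes tested that did: JUND was higher in pseudopodia, and FOS and JUN were lower. Because RNA was measured in bulk, less of an mRNA per cell and fewer cells or protrusions carrying it cannot be told apart.

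**Figure D1:**
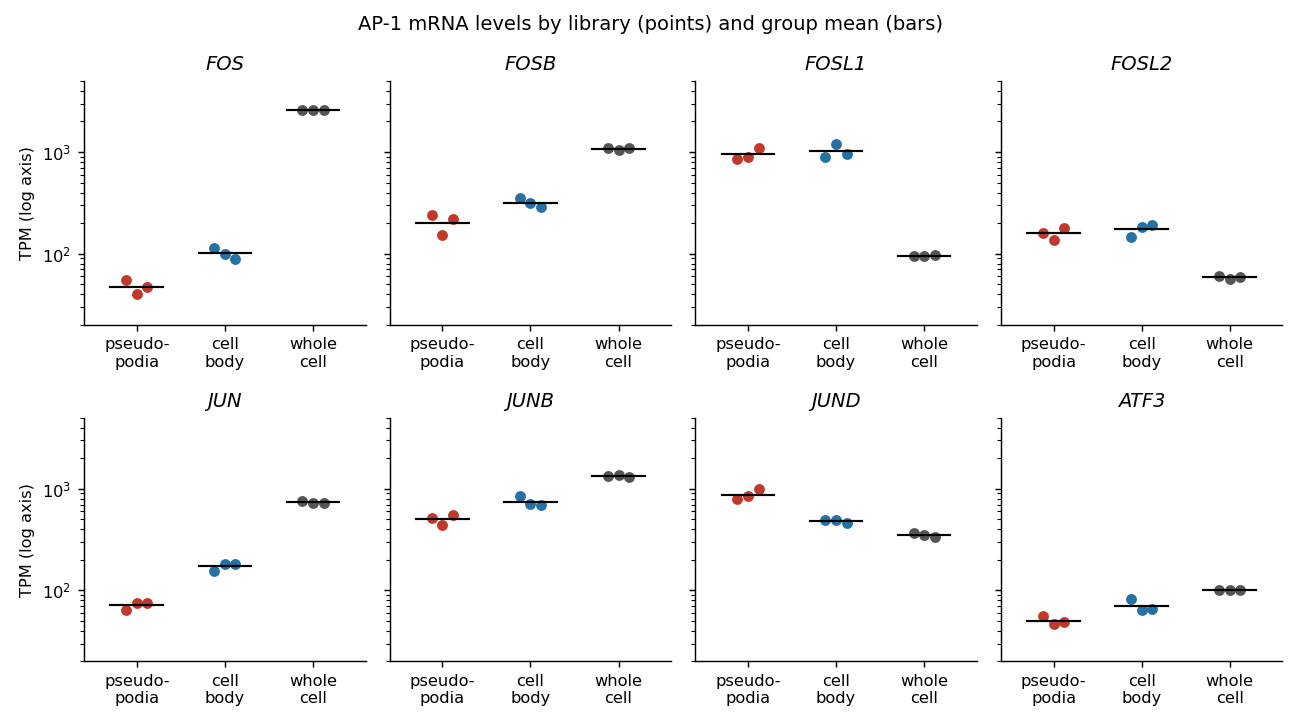
Level of each AP-1 mRNA in TPM (vertical log axis) in the 3 libraries of each group (points), with the group mean as a bar. FOS runs from 40.1 TPM in a pseudopodia library to 2615 in a whole-cell library, while FOSL1 runs from 95.1 in a whole-cell library to 1211 in a cell-body library.

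FOS encodes the founding partner of JUN and is a standard marker of recent growth factor signalling. Its gene (ENSG00000170345) has 4 exons on chromosome 14 at 75278774 to 75282230 of GRCh38. Its level was 54.9, 40.1 and 47.2 TPM in pseudopodia replicates 1 to 3, 114.8, 100.3 and 89.5 in cell bodies, and 2615, 2602 and 2574 in whole cells. The 3 groups did not overlap, and whole cells stood far above both fractions. By TPM, FOS was the 34th to 36th gene in whole cells, between the 1264th and 1733rd in cell bodies and between the 2387th and 3192nd in pseudopodia. On normalised read counts (CPM, scaled by library total), FOS was lower in pseudopodia than in cell bodies by a log2 fold change of -0.81 ± 0.151 (SE, n = 3 per group, edgeR's quasi-likelihood test, Benjamini-Hochberg adjusted p = 0.00144), that is 1.75-fold. Against whole cells the log2 fold change was -5.31 ± 0.180 for pseudopodia (edgeR adjusted p = 1.2e-08) and -4.50 ± 0.173 for cell bodies (edgeR adjusted p = 1.04e-07), that is 39.7-fold and 22.6-fold lower. These and the other comparisons with whole cells use the same 3 whole-cell libraries, so they are not independent of each other.

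FOSB, a close relative of FOS with the same early response, lies on chromosome 19 at 45467995 to 45475179 (ENSG00000125740, 4 exons). It had 237.9, 151.7 and 217.2 TPM in pseudopodia, 354.2, 312.7 and 285.0 in cell bodies, and 1105, 1042 and 1085 in whole cells. Whole cells again stood above both fractions in every library. FOSB was 3.85-fold lower in pseudopodia than in whole cells (log2 fold change -1.94 ± 0.181, edgeR adjusted p = 5.86e-06) and 3.00-fold lower in cell bodies (-1.59 ± 0.179, edgeR adjusted p = 8.6e-05). Between the fractions FOSB did not pass the test (-0.36, 95% interval -0.74 to 0.03, edgeR adjusted p = 0.131), and pseudopodia replicate 1 with 387.5 CPM overlapped cell body replicate 3 with 376.1 CPM. A fit that removes the trend of counts with GC content and gene length gave -0.56 and passed (edgeR adjusted p = 0.00832). FOSB overlaps ERCC1, a DNA repair gene on the opposite strand, which had 46.7, 48.5 and 35.6 TPM on average in pseudopodia, cell bodies and whole cells. The strand setting of the counting is not known, so reads of the overlap cannot be assigned to either gene with certainty.

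FOSL1 encodes FRA-1, a FOS relative known for its role in migrating and invasive cells, on chromosome 11 at 65892049 to 65900573 (ENSG00000175592, minus strand, 4 exons). It had 859.4, 899.3 and 1101 TPM in pseudopodia, 896.2, 1211 and 953.7 in cell bodies, and 95.9, 95.1 and 96.5 in whole cells. The fractions overlapped each other, and both stood about an order of magnitude above whole cells. FOSL1 was 13.7-fold higher in pseudopodia than in whole cells (log2 fold change 3.78 ± 0.177, edgeR adjusted p = 6.5e-08) and 12.04-fold higher in cell bodies (3.59 ± 0.175, edgeR adjusted p = 2.65e-07). Between the fractions the log2 fold change was 0.19 (95% interval -0.16 to 0.54, edgeR adjusted p = 0.368), which does not show that the levels are equal, and the sign turned with GC and length offsets (-0.06) and with limma-voom (-0.01).

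FOSL2 encodes FRA-2, on chromosome 2 at 28392448 to 28417312 (ENSG00000075426, 4 exons), where its model overlaps an antisense gene. It had 159.9, 136.9 and 177.3 TPM in pseudopodia, 146.4, 184.6 and 192.5 in cell bodies, and 60.9, 56.9 and 58.4 in whole cells. As for FOSL1, the fractions overlapped and whole cells were below both. FOSL2 was 3.72-fold higher in pseudopodia than in whole cells (log2 fold change 1.90 ± 0.155, edgeR adjusted p = 2.38e-06) and 3.36-fold higher in cell bodies (1.75 ± 0.154, edgeR adjusted p = 1.6e-05). Between the fractions it was 0.15 (95% interval -0.18 to 0.48, edgeR adjusted p = 0.463), and the sign turned with GC and length offsets (-0.08).

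JUN encodes a JUN protein with which FOS proteins can pair to bind DNA, in a gene of 1 exon on chromosome 1 at 58780788 to 58784327 (ENSG00000177606, minus strand). It had 64.5, 75.6 and 75.3 TPM in pseudopodia, 155.2, 181.2 and 180.5 in cell bodies, and 760.4, 730.9 and 722.4 in whole cells. The 3 groups were fully apart, in the same order as for FOS. JUN was 1.97-fold lower in pseudopodia than in cell bodies (log2 fold change -0.98 ± 0.122, edgeR adjusted p = 8.81e-05). Against whole cells it was 7.46-fold lower in pseudopodia (-2.90 ± 0.130, edgeR adjusted p = 4.96e-08) and 3.79-fold lower in cell bodies (-1.92 ± 0.125, edgeR adjusted p = 1.85e-06).

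JUNB, a JUN relative that is a weaker activator on its own, is a gene of 1 exon on chromosome 19 at 12791496 to 12793315 (ENSG00000171223). It had 517.1, 437.3 and 556.0 TPM in pseudopodia, 844.9, 712.5 and 685.1 in cell bodies, and 1326, 1354 and 1315 in whole cells. Whole cells were above both fractions in every library, by less than for FOS, FOSB or JUN. JUNB was 1.91-fold lower in pseudopodia than in whole cells (log2 fold change -0.94 ± 0.144, edgeR adjusted p = 0.000208) and 1.58-fold lower in cell bodies (-0.66 ± 0.143, edgeR adjusted p = 0.00468). Between the fractions it did not pass the test (-0.28, 95% interval -0.59 to 0.03, edgeR adjusted p = 0.146). Without pseudopodia replicate 3 it did (-0.39, edgeR adjusted p = 0.0243), and with GC and length offsets the value was -0.66 (edgeR adjusted p = 9.07e-05). Those offsets also made the difference between pseudopodia and whole cells -1.62. JUNB overlaps HOOK2 on the opposite strand, which had 9.56, 7.69 and 12.3 TPM on average in pseudopodia, cell bodies and whole cells.

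JUND, the JUN relative of resting cells, is a gene of 1 exon on chromosome 19 at 18279760 to 18281622 (ENSG00000130522, minus strand). It had 791.6, 839.8 and 999.4 TPM in pseudopodia, 488.5, 495.0 and 462.8 in cell bodies, and 367.0, 350.7 and 331.8 in whole cells. No other member was highest in pseudopodia in every library, and the order of the 3 groups was the reverse of that for FOS and JUN. JUND was 2.22-fold higher in pseudopodia than in cell bodies (log2 fold change 1.15 ± 0.133, edgeR adjusted p = 4.97e-05) and 3.46-fold higher than in whole cells (1.79 ± 0.136, edgeR adjusted p = 1.4e-06). Cell bodies were 1.56-fold above whole cells (0.64 ± 0.132, edgeR adjusted p = 0.00352). The fit with GC and length offsets kept all 3 calls, with log2 fold changes of 0.63, 0.97 and 0.34 (edgeR adjusted p = 0.000117, 3.62e-06 and 0.0058). Those offsets use the GC content of a gene's longest transcript and the length of its exons. They do not use the 250 bases before the start of JUND, shown above, which had 74.8% GC.

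ATF3, a partner of JUN proteins that often acts as a repressor, lies on chromosome 1 at 212565334 to 212620777 (ENSG00000162772, 4 exons in its principal transcript). It had 56.1, 46.9 and 48.5 TPM in pseudopodia, 83.0, 64.5 and 65.4 in cell bodies, and 101.7, 100.7 and 101.9 in whole cells. Its whole-cell libraries were above both fractions, with the smallest gap of the 8 members. ATF3 was 1.46-fold lower in pseudopodia than in whole cells (log2 fold change -0.54 ± 0.137, edgeR adjusted p = 0.00508). It did not pass the test for cell bodies against whole cells (-0.34, 95% interval -0.64 to -0.04, edgeR adjusted p = 0.0703) or for pseudopodia against cell bodies (-0.21, 95% interval -0.51 to 0.10, edgeR adjusted p = 0.262). With limma-voom the sign of the last turned, to a log2 fold change of 0.00407. Without cell body replicate 1, cell bodies against whole cells passed (-0.46, edgeR adjusted p = 0.0252), and so it did without pseudopodia replicate 3, which enters only the shared spread (-0.33, edgeR adjusted p = 0.0332). With GC and length offsets it was -0.48 (edgeR adjusted p = 0.00601).

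**Figure D2:**
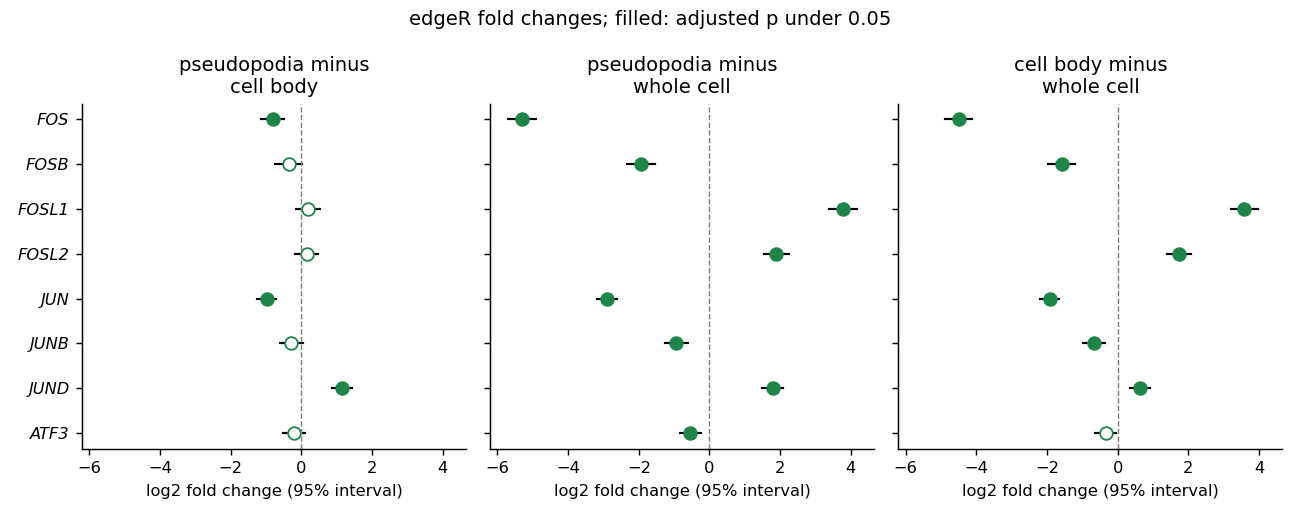
Log2 fold change of normalised counts (horizontal axis) for each AP-1 gene in the 3 comparisons, with 95% intervals from edgeR, filled where the adjusted p is under 0.05. JUND is the only filled point to the right of 0 between the fractions (1.15), and FOS against whole cells is the farthest point from 0 (-5.31 for pseudopodia and -4.50 for cell bodies).

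Counted over the family, pseudopodia against cell bodies gave 1 of 8 members higher and 2 lower, against 18.6% (higher) and 19.9% (lower) of 19426 genes, so the share of members called was close to that of all genes (38.5%). The median log2 fold change was -0.24 over the members and -0.05 over all genes. Against whole cells, 3 members were higher and 5 lower in pseudopodia, where 27.9% of genes were higher and 33.1% lower (61.0% in all). The median was -0.74 over the members and -0.12 over all genes. In cell bodies 3 members were higher and 4 lower than in whole cells, where 18.1% of genes were higher and 20.5% lower (38.6% in all), with medians of -0.50 and -0.06. Members whose CPM did not overlap between the groups numbered 3 of 8 between the fractions, where 47.1% of genes did not overlap. Both comparisons with whole cells had 8 of 8 apart, where 70.0% of genes were apart for pseudopodia and 64.9% for cell bodies.

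The scale mattered for the comparison of the fractions. For every gene alike, the deposited TPM put pseudopodia 0.29 lower against cell bodies on the log2 scale than CPM did (a shift of -0.29). On TPM, 6 of 8 members did not overlap between the fractions, against 50.8% of genes, FOSL1 and FOSL2 being the ones that did, and 8 of 8 were apart from whole cells in either fraction, against 73.3% of genes for pseudopodia and 64.8% for cell bodies. With limma on log2(TPM + 1), FOSB (-0.67, adjusted p = 0.0109), JUNB (-0.57, adjusted p = 0.00427) and ATF3 (-0.48, adjusted p = 0.0106) also passed as lower in pseudopodia. That scale moved the median of all genes by -0.12, and log2(TPM + 0.1) moved it by -0.27, nearer to the shift of -0.29. Relative to these moves FOSB stood at -0.54 and -0.40, JUNB at -0.45 and -0.31, and ATF3 at -0.35 and -0.22, the last of each pair close to the CPM values, which did not pass. FOS stood at -0.96 and -0.84, JUN at -1.13 and -0.997, and JUND at 0.98 and 1.12. FOSL1 and FOSL2 changed sign on this scale (-0.09 and -0.14) and were not called on either.

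The order of levels within a group was read from TPM. In whole cells it was FOS (2597 ± 20.7, SD, n = 3), JUNB (1332 ± 19.8), FOSB (1077 ± 32.4), JUN (737.9 ± 19.96), JUND (349.8 ± 17.6), ATF3 (101.5 ± 0.637), FOSL1 (95.8 ± 0.689) and FOSL2 (58.7 ± 1.99), and no neighbours in this order overlapped. In pseudopodia FOSL1 (953.3 ± 129.6) and JUND (876.9 ± 108.8) led and overlapped each other, JUNB followed at 503.5 ± 60.5, and FOS (47.4 ± 7.36) was the last, overlapping ATF3 (50.5 ± 4.89). In cell bodies FOSL1 (1020 ± 168) led and did not overlap JUNB (747.5 ± 85.5), the next, while FOSL2 (174.5 ± 24.7) and JUN (172.3 ± 14.8) overlapped. FOS, the first of the 8 in whole cells, was thus the seventh in cell bodies (101.5 ± 12.7) and the last in pseudopodia.

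The summed level of the 8 mRNAs was 2864 ± 316 TPM in pseudopodia, 3087 ± 174 in cell bodies and 6350 ± 74.9 in whole cells (SD, n = 3). FOS, FOSB, JUN and JUNB together made up 28.8% ± 2.69, 43.4% ± 3.87 and 90.5% ± 0.180 of this sum. FOS alone made up 1.66%, 3.29% and 40.9%, FOSL1 33.3%, 32.97% and 1.51%, and JUND 30.6%, 15.6% and 5.51%. The pool of AP-1 mRNA was therefore mostly FOS, FOSB, JUN and JUNB in whole cells, and mostly FOSL1, JUND and JUNB in the fractions. The FOS family as a whole took 47.5% ± 0.657 in pseudopodia, 52.2% ± 3.21 in cell bodies and 60.3% ± 0.368 in whole cells, a much smaller span than that of FOS alone. Each pair of groups was apart in this share (exact permutation test, two-sided, p = 0.1 and adjusted p = 0.1 for each of 3 comparisons, the smallest p that 3 against 3 can give, so none could pass 0.05).

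**Figure D3:**
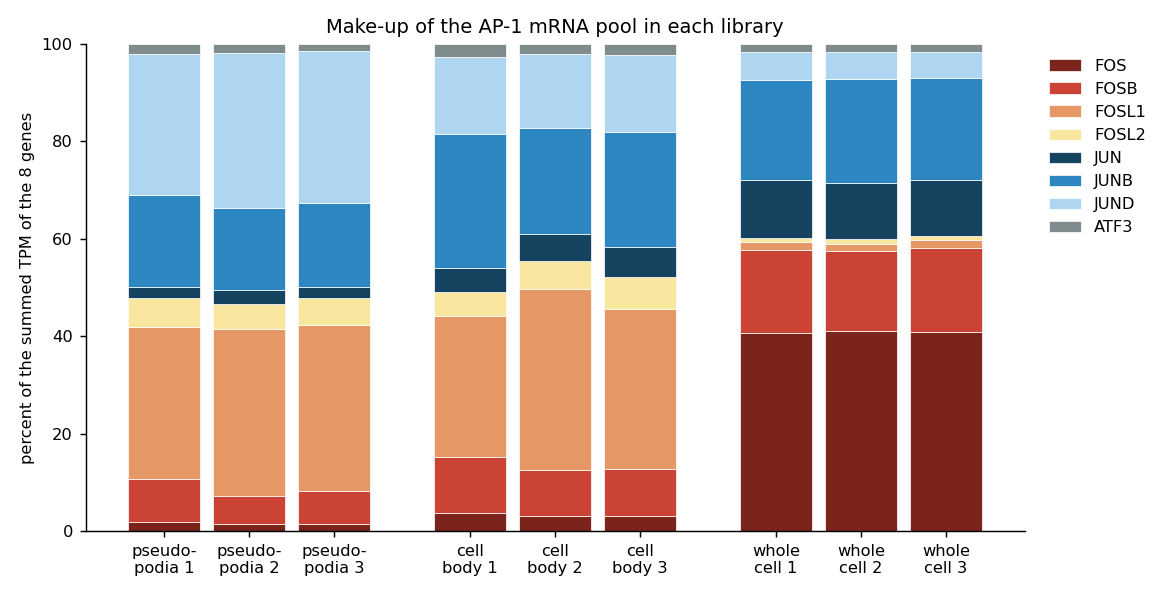
Share of each AP-1 mRNA in the summed TPM of the 8 genes (vertical axis, percent) in each of the 9 libraries, with reds to yellows for the FOS family, blues for the JUN family and grey for ATF3. FOS takes 40.9% on average in whole cells and 1.66% in pseudopodia, where FOSL1 (33.3%) and JUND (30.6%) take most.

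Ratios of 2 members within a library do not depend on how libraries were scaled to each other. FOSL1 had 15.7, 22.4 and 23.3 times the TPM of FOS in pseudopodia, 7.81, 12.1 and 10.7 times in cell bodies, and 0.0367, 0.0365 and 0.0375 times in whole cells. The ratio was above 1 in all 6 fraction libraries and below 1 in all 3 whole-cell libraries, and pseudopodia lay above cell bodies in every library. On the log2 scale (pseudocount 0.1 TPM) it was 4.33 ± 0.316, 3.32 ± 0.324 and -4.76 ± 0.0196 (SD, n = 3). JUND had 1.53, 1.92 and 1.80 times the TPM of JUNB in pseudopodia, 0.578, 0.695 and 0.676 times in cell bodies, and 0.277, 0.259 and 0.252 times in whole cells. JUND thus exceeded JUNB in pseudopodia only, among these 3 groups. For JUN against JUNB the log2 ratio was -2.81, -2.11 and -0.85 on average in pseudopodia, cell bodies and whole cells, and for ATF3 against JUN it was -0.51, -1.28 and -2.86. In all 15 comparisons of the 5 ratios the groups were apart in every library (exact permutation test, two-sided, p = 0.1, the smallest possible, adjusted p = 0.1). The ratios are built from the member levels given above, so they are no separate evidence. How often ratios of other gene pairs are apart was not computed.

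**Figure D4:**
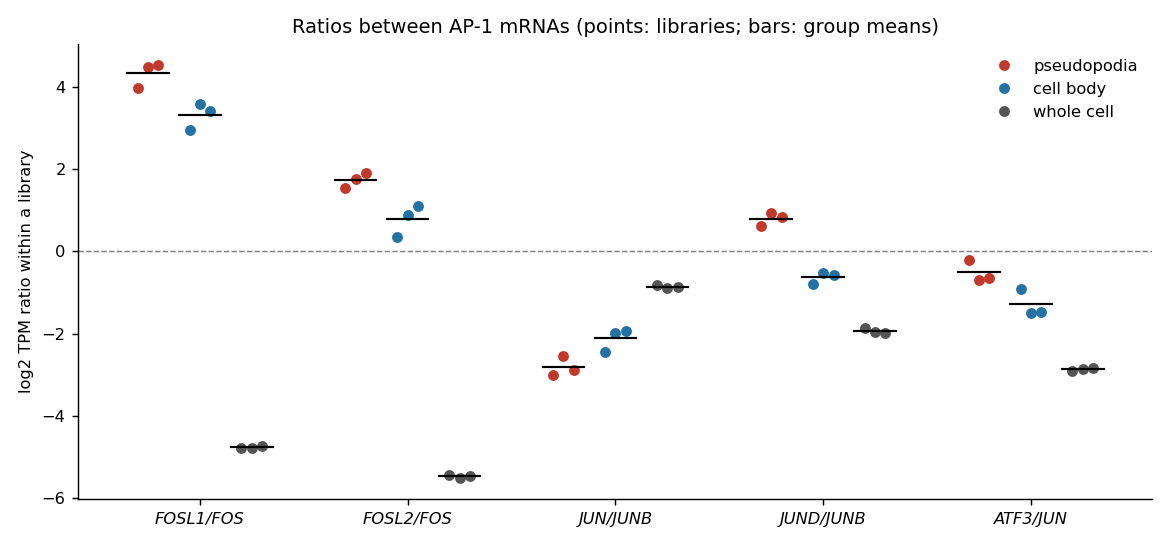
Log2 ratio of the TPM of 2 AP-1 genes (vertical axis) in each library (points), for 5 pairs of genes. FOSL1 over FOS is positive in pseudopodia (mean 4.33) and cell bodies (3.32) and negative in whole cells (-4.76), and JUND over JUNB is positive in pseudopodia alone (0.80).

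The genes whose CPM profile was most like that of FOS over the 9 libraries were TXNIP, SDHAP2 and ARHGEF39 (Pearson r = 0.997, 0.997 and 0.996). TXNIP, an inhibitor of thioredoxin, had 36.0, 63.4 and 552.4 TPM on average in pseudopodia, cell bodies and whole cells. SDHAP2 is a pseudogene of SDHA whose reads may belong to its parent, at 3.95 TPM or less on average. Most like FOSL1 were the phosphate transporter gene SLC20A1, PHLDA2 and PGF, a growth factor of the VEGF family (r = 0.998, 0.997 and 0.997), and SLC20A1 had 502.5, 552.3 and 113.4 TPM. These values describe 9 libraries that fall into 3 groups, and carry no test.

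Other genes of the AP-1 pathway were read from 5 lists, beside the shares of all genes called, which were 38.5% for pseudopodia against cell bodies, 61.0% for pseudopodia against whole cells and 38.6% for cell bodies against whole cells. Of 16 related leucine zipper factors 15 were tested: 5 passed as higher and 1 as lower in pseudopodia against cell bodies, 7 and 5 against whole cells, and 4 and 2 in cell bodies against whole cells. That is 40%, 80% and 40% of the list, of which the first and the last are near the shares of all genes. Median log2 fold changes were 0.13, 0.47 and 0.14 over the list, against -0.05, -0.12 and -0.06 over all genes. JDP2, a repressor that pairs with JUN proteins, showed the highest of these changes, with 429.5 ± 98.5 CPM in pseudopodia, 87.7 ± 4.87 in cell bodies and 79.8 ± 1.45 in whole cells (log2 fold change 2.29 ± 0.160 against cell bodies, edgeR adjusted p = 1.43e-06). Like JUND, it was highest in pseudopodia. The lowest between the fractions was CREB5 (-1.15 ± 0.236, edgeR adjusted p = 0.00264). CEBPD was the lowest against whole cells, in both pseudopodia (-1.16) and cell bodies (-1.63), and CEBPB the highest in cell bodies (1.72).

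Of 25 kinases and factors upstream of the AP-1 genes, 6 passed as higher and 2 as lower in pseudopodia against cell bodies, 13 and 3 against whole cells, and 8 and 0 in cell bodies against whole cells. That is 32%, 64% and 32% of the list, near or below the shares of all genes called in either direction. The calls of this list leaned to the higher side in each comparison. In the same order, all genes tested had 18.6% higher and 19.9% lower, 27.9% and 33.1%, and 18.1% and 20.5%. The list had median log2 fold changes of 0.19, 0.56 and 0.27, against -0.05, -0.12 and -0.06 over all genes. The cause was not tested. MAP2K7, a kinase that activates JNK, the JUN kinase, had 126.3 ± 20.8 CPM in pseudopodia and 46.0 ± 4.02 in cell bodies (log2 fold change 1.46 ± 0.142, edgeR adjusted p = 1.4e-05). ELK1, a partner of serum response factor at early genes, was 1.76 higher on the log2 scale in pseudopodia than in whole cells. ELK3 (-1.08, pseudopodia against whole cells) and MRTFB (-0.80, pseudopodia against cell bodies) were the lowest called, and MRTFA the highest in cell bodies against whole cells (1.28). Of 18 genes for the decay of AU-rich mRNAs, 6 passed as higher and 3 as lower in pseudopodia against cell bodies, 7 and 5 against whole cells, and 0 and 4 in cell bodies against whole cells. That is 50%, 66.7% and 22.2% of the list, the last below the 38.6% of all genes. Median log2 fold changes over this list were 0.04, 0.18 and 0.06. ZFP36, which encodes the decay factor tristetraprolin, had 298.8 ± 48.0 CPM in cell bodies and 686.6 ± 16.8 in whole cells (-1.20 ± 0.135, edgeR adjusted p = 8.4e-05). TIA1, a binder of AU-rich sequence, was lower in pseudopodia than in cell bodies (-1.23) and than in whole cells (-2.20). PABPC1, the cytoplasmic poly(A) binding protein, was higher in pseudopodia than in cell bodies (1.22 ± 0.365, edgeR adjusted p = 0.0257). Its pseudopodia libraries spread widely, at 2350 ± 1311 CPM, against 1007 ± 117 in cell bodies. KHSRP was higher in pseudopodia than in whole cells (1.12).

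Of 27 textbook AP-1 target genes 24 were tested. In pseudopodia 3 were higher and 13 lower than in cell bodies, with a median log2 fold change of -0.92, against -0.05 over all genes. In cell bodies 18 were higher and 1 lower than in whole cells, with a median of 1.13, against -0.06, and in pseudopodia 11 were higher and 8 lower than in whole cells (median 0.87, against -0.12). The called made up 66.7%, 79.2% and 79.2% of the list for pseudopodia against cell bodies, pseudopodia against whole cells and cell bodies against whole cells. HBEGF, an EGF receptor ligand, had 36.1 ± 3.85 CPM in pseudopodia, 31.6 ± 0.156 in cell bodies and 1.29 ± 0.187 in whole cells, the pattern of FOSL1. Cyclin D1 (CCND1) was the highest between the fractions (1.88 ± 0.177, edgeR adjusted p = 1.13e-05), and fibronectin (FN1) the lowest (-2.36 ± 0.192, edgeR adjusted p = 3.98e-06). ITGA2 was the 1 target called lower in cell bodies than in whole cells (-0.93). Mesenchymal markers were also called lower in pseudopodia than in cell bodies, 6 of 6 with a median of -1.17, where 19.9% of all genes were lower. CD44 is in both lists. The part of the marker difference in the target counts was not tested.

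Of 17 other immediate early genes, 1 passed as higher and 11 as lower in pseudopodia against cell bodies, where 18.6% of all genes were higher and 19.9% lower (median -0.61, against -0.05 over all genes). Against whole cells 4 were higher and 8 lower in pseudopodia (-0.34, against -0.12), and 7 and 6 in cell bodies (-0.01, against -0.06). The called made up 70.6%, 70.6% and 76.5% of the list. The early genes thus did not all follow FOS. NR4A3, an orphan nuclear receptor, had 50.9 ± 16.8 CPM in pseudopodia, 95.5 ± 7.75 in cell bodies and 2.29 ± 0.176 in whole cells (log2 fold change 5.38 ± 0.263 for cell bodies against whole cells, edgeR adjusted p = 2.96e-07), the opposite of FOS against whole cells. CCN1, a matrix protein gene, had 82.4 ± 10.9, 234.6 ± 46.1 and 1170 ± 29.5 CPM in the same order of groups, which was the order of FOS and JUN. EGR3, a zinc finger factor, was the 1 early gene of this list called higher in pseudopodia than in cell bodies (0.86 ± 0.163, edgeR adjusted p = 0.00157).

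**Figure D5:**
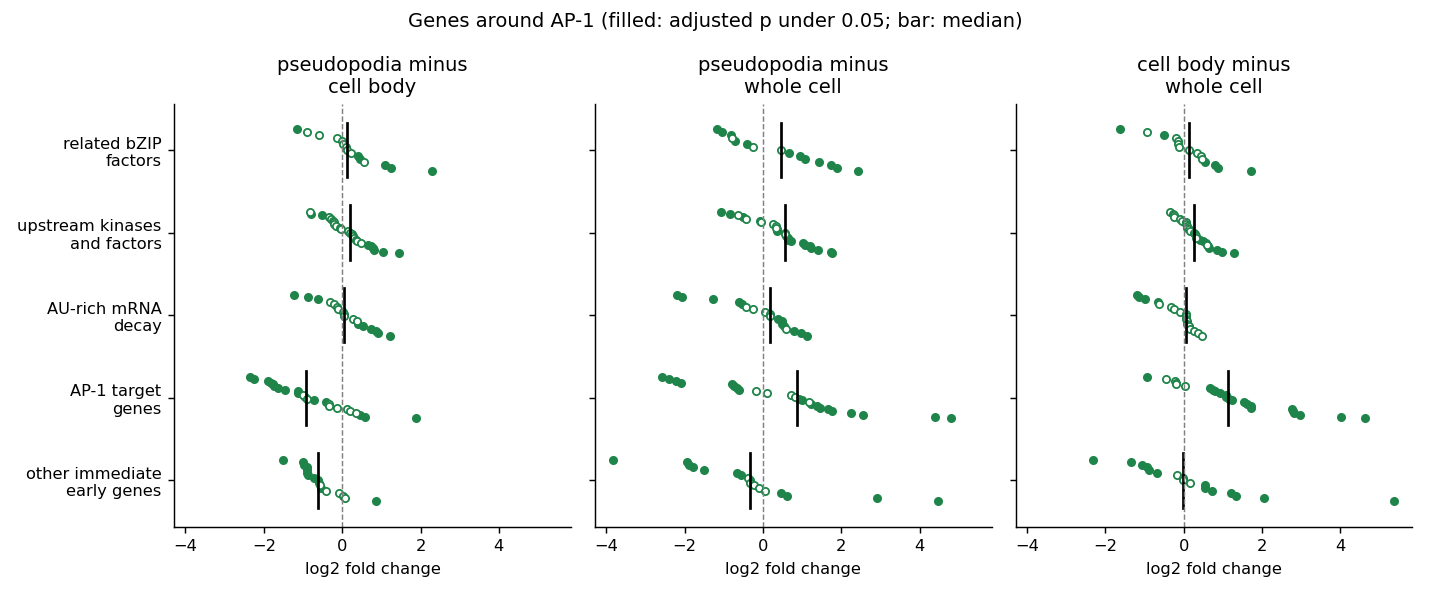
Log2 fold change (edgeR) of every tested gene (points) of 5 lists of genes related to AP-1 in the 3 comparisons. The median of the AP-1 target genes is -0.92 for pseudopodia against cell bodies and 1.13 for cell bodies against whole cells, while the early genes spread to both sides of 0 against whole cells.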

How the data were processed

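Gene counts and TPM values were deposited by the authors for 9 libraries. Per the labels, the table of read counts came from featureCounts and libraries from a low-input kit. Per the submitters' processing notes DESeq2 was used and the build was GRCh38. Aligner, annotation release, tool versions and strand setting: not given in the sources used here. The deposited TPM equalled the deposited counts divided by a gene length and a library constant. One identifier with blank values was left out, and 37196 of 62709 genes had a count.

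Counts were fitted in edgeR 4.0.16 (R 4.3.3) with TMM factors, edgeR's expression filter by group and the robust quasi-likelihood test, all 9 libraries in 1 fit. Benjamini-Hochberg adjustment ran over 19426 genes, and an adjusted p under 0.05 was called. The test was checked on simulated data. CPM are TMM-scaled. Standard errors come from the test statistic. Alternatives were other size factors and filters, DESeq2 1.42.0, limma 3.58.1 (voom and log2 TPM), GC and length offsets (96.1% of genes had both), a replicate block and each library left out.

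Named were all 8 members, for each list and comparison the called genes with the highest and lowest log2 fold change (mean CPM of at least 1), and the 3 genes most like FOS and FOSL1. For JDP2, HBEGF, NR4A3 and CCN1 the values of all groups are given. Members and lists were chosen with earlier results of these data known. Gene positions and 3′ UTRs are from GENCODE release 29, and promoters from RefSeq (GRCh38.p14), where 7 of 8 members matched. No sample was left out or imputed.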

Additional observations from a re-analysis of the deposited data

How the results depend on the processing

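No member called in the reported fit lost its call or changed direction under any alternative run. Of 528 member values under alternatives, 496 kept direction and call side, 22 newly passed the threshold in the same direction, and 10 changed sign, none of them called on either side and all between the fractions. These were FOSL1 (0.19 as reported) at -0.0587 with GC and length offsets, -0.0472 with offsets and the replicate block, -0.00534 with limma-voom and -0.0941 on both TPM scales, FOSL2 (0.15) at -0.0779 with offsets, -0.0773 with offsets and the block and -0.14 on both TPM scales, and ATF3 (-0.21) at 0.00407 with limma-voom. Members lower in pseudopodia than in cell bodies numbered 4 with GC and length offsets, with or without the replicate block, and 5 with log2(TPM + 1) or log2(TPM + 0.1), against 2 in the reported fit. They numbered 3 with the 5 CPM filter, with limma-voom and without pseudopodia replicate 3, JUNB being the added member each time. With offsets the added ones were JUNB (-0.66, edgeR adjusted p = 9.07e-05) and FOSB (-0.56, edgeR adjusted p = 0.00832). ATF3 in cell bodies against whole cells also passed with offsets (-0.48, edgeR adjusted p = 0.00601). The cause of these changes was not tested.

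Over all genes, pseudopodia against cell bodies gave 2326 higher and 5859 lower with log2(TPM + 1) and 2209 and 6009 with log2(TPM + 0.1), where the reported fit had 3605 and 3870, so that 28.4% and 26.9% of calls were higher, against 48.2%. Against whole cells pseudopodia had 3238 and 3104 higher, against 5412 (25.4% and 24.5% of calls, against 45.7%). Cell bodies had 2321 higher than whole cells with log2(TPM + 0.1), against 3521, and 31.7% and 30.2% of calls were higher on the TPM scales, against 46.9%. A 5 CPM filter, which tests fewer genes, left 3805 lower in pseudopodia and 2066 lower in cell bodies than in whole cells, against 6430 and 3980. limma-voom called 5994 lower in pseudopodia than in cell bodies, and 5730 higher and 6269 lower in cell bodies than in whole cells. Leaving out 1 library at a time gave 2338 to 4988 genes higher in cell bodies than in whole cells, the lowest without whole cell replicate 1.

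The replicate number as a block left the members' counts as reported (1 and 2, 3 and 5, 3 and 4 higher and lower) and gave 3267 and 3653 genes between the fractions. Deviations of same-numbered libraries correlated between -0.0807 and 0.0901 over all pairs of groups, and those of different-numbered libraries between -0.176 and 0.144. With 3 libraries per group, these values cannot settle whether same-numbered libraries share a culture, which the labels do not say. Every member had 2401 counts or more in every library, so low depth bears little on these values.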
